A study of Ailuropoda melanoleuca with 25 samples.

Results

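The spleen of the giant panda was compared with the heart, liver, lung, and kidney of the same animals. The spleen was represented by 5 of the 25 RNA-seq libraries of the study, 1 from each of 5 pandas, and the other 20 libraries were 5 from each of the other tissues. Libraries were assigned by the tissue in their labels, and libraries with the same number came from the same panda. Panda 1 was a female with a labelled age of 27 and ovarian cancer, panda 2 was a female with a labelled age of 9 and a cause of death entered as "ileac pssion", and pandas 3 and 4 (females) and 5 (male) had a labelled age of 0.5 and died of coronavirus infection. The unit of age was not in the labels, and age, cause, and year of death changed together between the pandas, so they cannot be told apart. All tissues were taken from newly dead captive animals, with no treated or healthy control group.

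The spleen is a secondary lymphoid organ that also filters the blood. Its white pulp holds B cell follicles and T cell zones, which are built by stromal cells that secrete chemokines, and its red pulp holds macrophages that take up old red cells and platelets. The organ grows from the splenic mesenchyme under a small set of homeobox and nuclear receptor genes, and it is not built around an epithelium.

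Expression was given as FPKM, the reads on a gene scaled to its length and to the reads of the library, and tests were made on log2(FPKM + 1), so that a log2 difference understates the change of low genes. The depth recovered from the deposited values was 13448098 to 17390324 reads on genes in the spleen and 13149541 to 21382959 over all libraries. Genes were identified through the names that the study printed for its tissue-specific genes. Every identified member of a list was thus a gene that the study had picked on these same samples. Members of the immune lists nearly all stood there under the spleen, and those of the other organs' lists nearly all under another tissue alone. The counts of the lists are therefore not independent evidence of a direction. Names could be read for 1778 of 2814 identifiers, and genes without a name there were not examined by name. In a bulk tissue, more cells of a type and more RNA per cell cannot be told apart. The markers IGHM, CD79B, and CXCL13 were above every other library in all 5 spleens. They too stood in the study's table under the spleen, so this is not an independent check of the label. Before the results, 2 features of the spleen libraries have to be given. Spleen 4 held traces of lung transcripts, with an SFTPC (surfactant protein C) level of 99.3 FPKM against 0, 6.07, 4.63, and 0 FPKM in spleens 1, 2, 3, and 5. Spleens 2 and 4 were the lowest pair for 46.3% of the genes higher in the spleen than in all 4 other tissues, and for 31.1% of all 15346 genes with a spleen mean above 1 FPKM. Beside each list, the number called in all 4 comparisons is given without spleen 4 where it differs. Among the other tissues liver 3 stood apart, with a TMM scale of 0.242 against 0.573 to 0.668 in the other livers. Without liver 3, 3279 genes were higher in the spleen than in the liver, 725 were lower, and 321 were higher in all 4 comparisons.

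A gene was called where limma gave a Benjamini-Hochberg adjusted p below 0.05 and the log2 difference lay beyond 2 in either direction. Against the heart, 3126 genes (19.4% of 16116 tested) were higher in the spleen and 626 (3.88%) were lower. Against the liver, 4203 genes (25.9% of 16201) were higher and 638 (3.94%) were lower. The lung stood closest, with 481 genes (2.84% of 16908) higher in the spleen and 682 (4.03%) lower. Against the kidney, 1374 genes (8.06% of 17049) were higher and 1066 (6.25%) were lower. The whole distribution was shifted, since the median log2 difference of all genes tested was 1.16 against the heart, 1.29 against the liver, 0.03 against the lung, and 0.41 against the kidney, and the differences below should be read against these medians. With quantile normalization, which removes the shift, the heart comparison gave 1162 genes higher and 1217 lower, the liver 1112 and 1225, the lung 433 and 568, and the kidney 1009 and 1168. The 4 comparisons share the 5 spleen libraries.

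In all 4 comparisons at once, 326 of 15399 genes (2.12%) were higher in the spleen and 9 genes (0.0584%) were lower. Among the 326 genes, 163 had a name, and 249 stood in the study's table under the spleen. All 5 spleens lay above all 20 other libraries for 279 of the 326 genes, against 994 (6.45%) of all genes tested in the 4 comparisons. The lung had the next highest mean for 239 of the 326 genes, the kidney for 44, the liver for 24, and the heart for 19. The sign was the same in all 5 pandas against all 4 tissues for 323 genes. The other 3, which had no name, were higher than in the kidney in 4 of 5 pandas. The genes were called for large differences in these same libraries, so this agreement is not separate support. The share over all genes was not counted. Quantile normalization gave 254 genes, of which 236 were among the 326. Pandas 3 to 5 alone gave 268 genes (252 shared), pandas 1 and 2 alone gave 249 (211 shared), and leaving out spleen 4 gave 370 (318 shared).

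**Figure D1:**
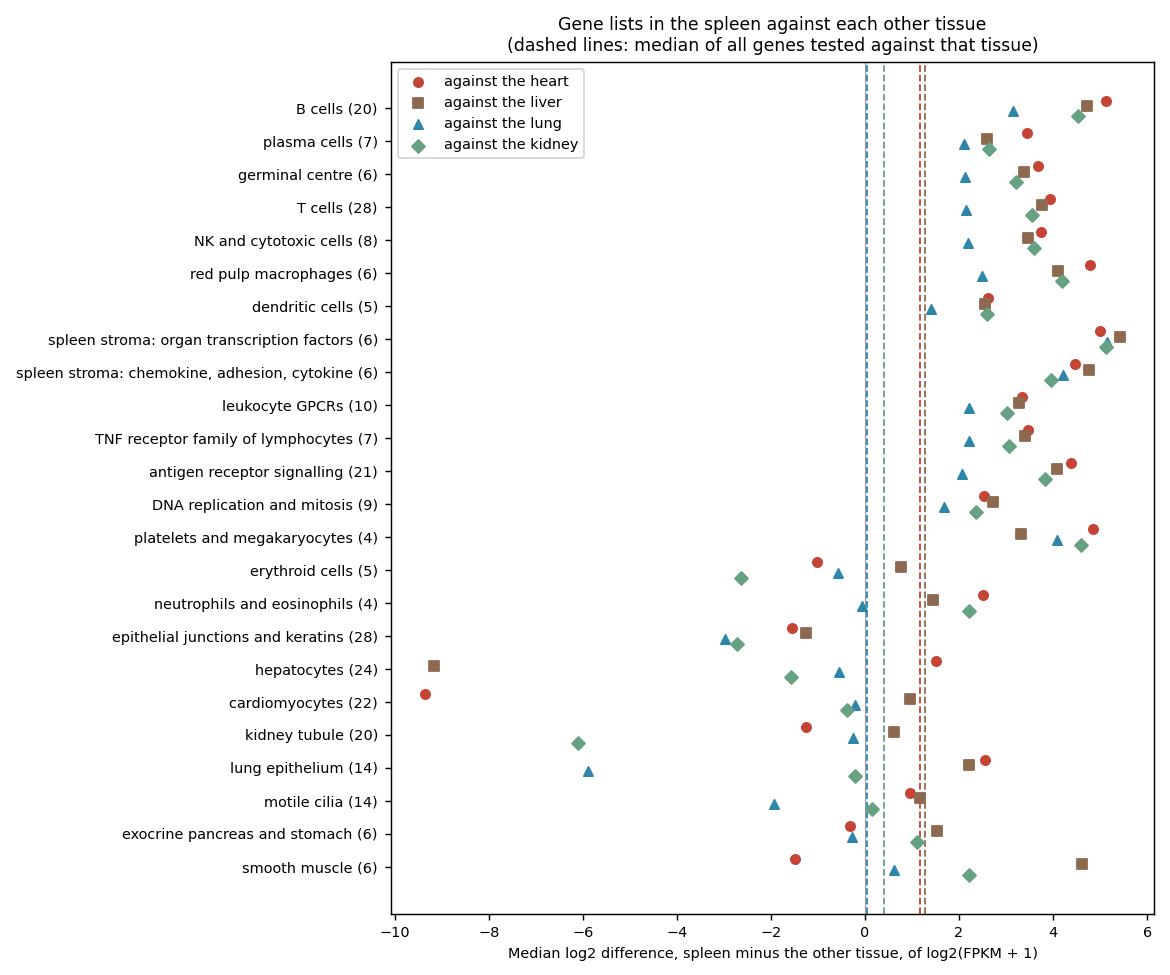
Median log2 difference (x axis, spleen minus the other tissue, on log2(FPKM + 1)) of each gene list with at least 4 identified genes (rows, number of identified genes in brackets), against the heart, liver, lung, and kidney (symbols), with a dashed line at the median of all genes tested against each tissue. Against the lung, the 6 organ transcription factors of the stroma have the highest median, 5.16, and the lists of lung and epithelial genes lie furthest to the left, at -5.89 and -2.98.

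B cell genes were higher in the spleen in nearly every comparison. Of 25 genes listed for the B cell receptor and B cell identity, 20 had an identifier, and 17 of these were higher in the spleen than in all 4 other tissues, against a background of 2.12%. All 20 lay above all other libraries in every spleen, against 6.45% of all genes. Their median log2 difference was 5.12 against the heart, 4.71 against the liver, 3.15 against the lung, and 4.53 against the kidney. Under quantile normalization 14 of the 20 were called in all 4 comparisons.

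IGHM, the constant region of the IgM heavy chain, was measured at 9547, 8176, 3989, 6568, and 6831 FPKM in spleens 1 to 5. The other libraries ranged from 0.967 to 6.05 FPKM in the heart, 5.48 to 14.7 FPKM in the liver, 4.14 to 15.7 FPKM in the kidney, and 158 to 479.5 FPKM in the lung. No library overlapped with the spleen, whose lowest value was 8.32 times the highest lung value. The log2 difference was 10.88 ± 0.33 (adjusted p = 1.41e-10) against the heart and 4.89 ± 0.33 (adjusted p = 5.46e-07) against the lung (± SE). IGHM was also the gene with the largest log2 difference against the heart and the liver among the named genes that did not overlap.

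CD79B, the signalling chain paired with CD79A in the B cell receptor, gave 113, 143, 215, 125, and 111 FPKM in the 5 spleens and 3.49 to 23.4 FPKM in the lung. It was at 0.0884 to 0.521 FPKM in the heart, 0.0930 to 1.59 FPKM in the liver, and 0 to 1.83 FPKM in the kidney. Spleen 3 had the highest level, and the spleens did not overlap with the lung (log2 difference 4.37 ± 0.43, adjusted p = 1.10e-05). CR2, the complement receptor of B cells and follicular dendritic cells, was at 88.1, 37.4, 76.3, 43.7, and 64.5 FPKM, against at most 5.71 FPKM elsewhere. SPIB, an ETS factor of B cells and plasmacytoid dendritic cells, was among the most even genes of the spleen, with 52.2, 58.1, 61.9, 50.1, and 45.6 FPKM and an SD of 0.17 on the log2 scale over the 5 spleens. The log2 difference of SPIB against the lung was 4.15 ± 0.19 (adjusted p = 3.62e-08), and no library of another tissue passed 2.86 FPKM. TNFRSF13C, the receptor of the B cell survival factor BAFF, was similarly even, with 40.01, 40.02, 44.2, 37.4, and 27.5 FPKM in the spleens against at most 3.36 FPKM in the other tissues. The 3 B cell genes that were not called in all 4 comparisons were BLK and IKZF3, which were not called against the lung (1.68 and 1.79 on the log2 scale), and the low TLR10, called against the heart alone with spleen values of 0.704 to 7.09 FPKM.

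**Figure D2:**
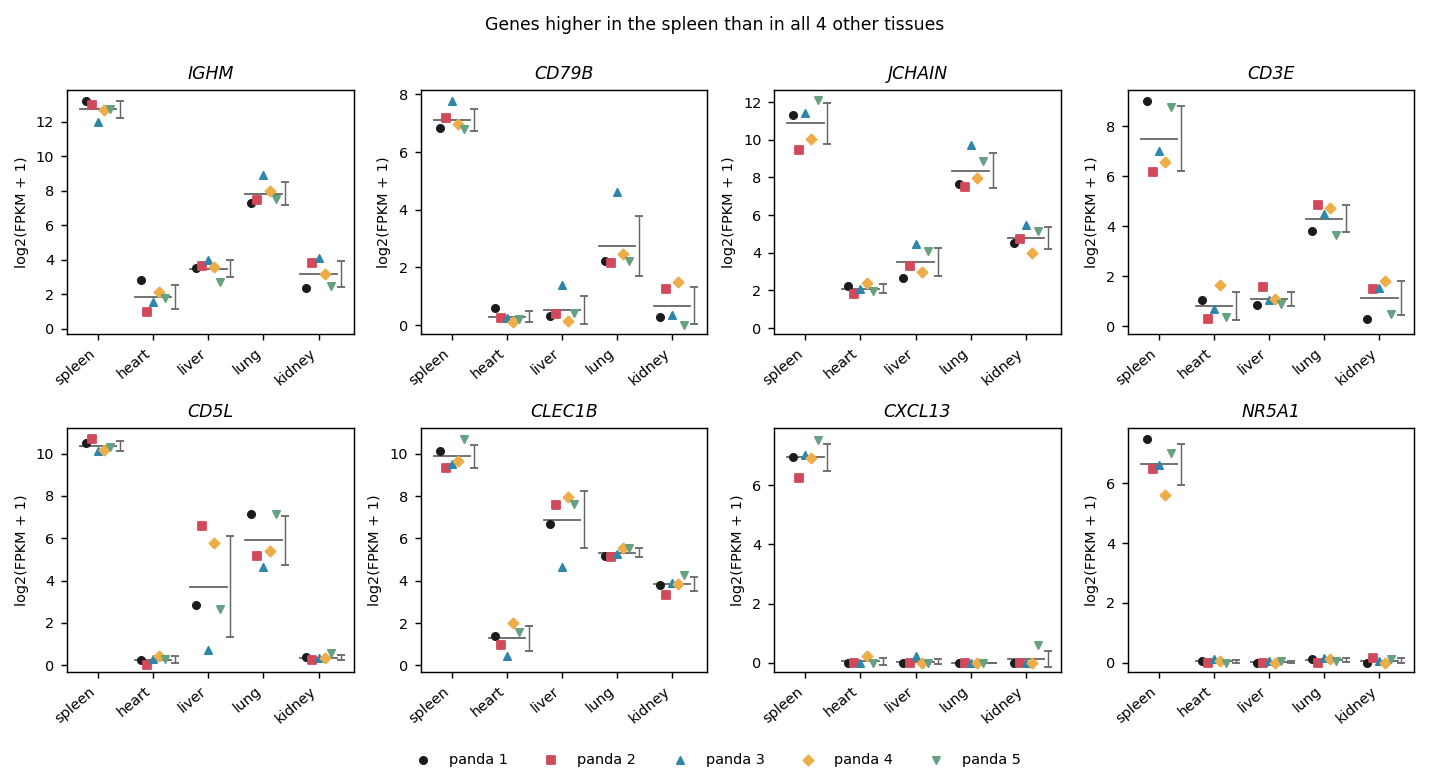
Expression of 8 genes, in log2(FPKM + 1) on the y axis, in the libraries of the 5 tissues on the x axis, with a point for each panda, a line at the mean, and bars of 1 SD (n = 5). All 5 spleen points lie above every other library in each panel but that of JCHAIN, where spleen 2 (714 FPKM) lies below the highest lung library (846 FPKM).

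Genes of antibody-secreting cells were high but more uneven. Of 11 plasma cell genes, 7 had an identifier and 3 were called higher in all 4 comparisons (background 2.12%). The count was 4 without spleen 4 and 1 under TMM or median-of-ratios scaling. JCHAIN, which joins the subunits of IgM and IgA polymers, was at 2568, 714, 2750.1, 1066, and 4457 FPKM in spleens 1 to 5 and at 180.0 to 846 FPKM in the lung. Spleens 2 and 4 were the low pair, and spleen 2 overlapped with the lung, where the log2 difference was 2.53 ± 0.54 (adjusted p = 0.00377). The receptors TNFRSF13B (TACI) and TNFRSF17 (BCMA), which bind BAFF and APRIL, gave 10.4, 6.17, 18.97, 7.55, and 11.8 FPKM and 11.6, 4.66, 25.5, 6.53, and 19.3 FPKM. Their log2 differences against the lung were close to the threshold, at 2.24 ± 0.35 (adjusted p = 4.94e-04) and 2.21 ± 0.51 (adjusted p = 0.00619). Both lost the call under TMM and median-of-ratios scaling, TNFRSF13B also under quantile normalization, and TNFRSF17 also without spleen 3. SDC1, a surface proteoglycan of plasma cells that epithelia also carry, was lower in the spleen (5.67 to 21.4 FPKM) than in the liver, lung, and kidney and higher than in the heart.

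The germinal centre list had 6 identified genes of 9, of which 3 were called in all 4 comparisons (background 2.12%). The count was 4 without spleen 4. All 6 had no overlap with the other tissues, against 6.45% of all genes. IL21R, the receptor of the helper T cell cytokine IL-21, was at 25.7, 15.9, 13.4, 13.1, and 16.3 FPKM, with spleen 1 above the others, and at most at 3.16 FPKM outside the spleen. GCSAM, a membrane adaptor of germinal centre B cells, gave 12.7, 3.86, 5.46, 4.05, and 10.5 FPKM and was 0 in every heart and liver library, so that its spleen mean was at least 20.2-fold higher than in the heart (counted against a floor of 3 reads per library, as for the other genes at 0). MYBL2, a cell cycle factor of dividing cells, was at 23.8, 12.01, 39.2, 13.96, and 21.8 FPKM against 2.01 to 6.92 FPKM in the lung (log2 difference 2.33 ± 0.35, adjusted p = 2.98e-04), and quantile normalization brought its smallest difference to 1.996, just short of a call.

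T cell genes were higher in the spleen as well, with a wide spread between the pandas. Of 37 genes, 28 had an identifier, and 17 of them were higher than in all 4 other tissues (background 2.12%). Against the heart, liver, and kidney 25 of 28 genes were higher each time (backgrounds 19.4%, 25.9%, and 8.06%), and against the lung 17 (background 2.84%). The median log2 difference was 3.93, 3.77, 3.55, and 2.14 against the heart, liver, kidney, and lung. Over the 28 genes, the summed level was 2485, 386, 894, 568, and 2881 FPKM in spleens 1 to 5 and 114 to 209.97 FPKM in the lung. Spleens 1 and 5 were thus far above spleens 2 and 4, and spleens 2 and 4 were the lowest pair for 23 of the 28 genes (background 31.1%).

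CD3E, a subunit of the T cell receptor complex, was at 513, 71.2, 128, 93.4, and 439 FPKM in the spleens and at 11.5 to 27.5 FPKM in the lung. Its subunit partner CD3G gave 362, 42.97, 125, 87.9, and 518 FPKM, and the lung 11.95 to 22.5 FPKM. Neither gene overlapped with another tissue, and the log2 differences against the lung were 3.21 ± 0.53 (adjusted p = 6.40e-04) and 3.23 ± 0.56 (adjusted p = 9.32e-04). TRDC, the constant region of the T cell receptor delta chain, had the largest spread among the named genes higher in all 4 comparisons, with 385, 21.7, 88.1, 49.1, and 474 FPKM, an SD of 1.89 on the log2 scale, and 6.95 to 16.3 FPKM in the lung. CD8A, the co-receptor chain of cytotoxic T cells, did not share this spread. It was at 34.4, 43.8, 28.1, 40.9, and 36.98 FPKM, highest in the same spleens 2 and 4 where CD3E was lowest, and at most at 2.82 FPKM in the other tissues (log2 difference against the lung 3.63 ± 0.20, adjusted p = 1.14e-07). With pandas 1 and 2 alone, 4 T cell genes were called in all 4 comparisons and CD3E, CD3G, and TRDC were not among them. The smallest log2 differences of these 3 genes there were 3.26, 3.21, and 3.18, beyond the threshold of 2. Their calls were thus lost on the adjusted p and not on the size of the difference. With the same libraries 15 B cell genes were called in all 4 comparisons. The cause of the lost T cell calls was not tested. Pandas 3 to 5 gave 11 T cell genes, and leaving out spleen 4 gave 22.

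Of 16 genes of natural killer and cytotoxic cells 8 had an identifier, and 4 were called in all 4 comparisons (background 2.12%). The count was 6 without spleen 4 and 2 with pandas 1 and 2 alone. Spleens 2 and 4 were again the lowest pair, for 6 of the 8 (background 31.1%). KLRD1 (CD94), a lectin-like receptor, was at 763, 90.9, 345, 188, and 1169.6 FPKM, the highest level of the list, and at 26.4 to 113 FPKM in the lung. Spleen 2 overlapped with the lung, and the log2 difference was 2.83 ± 0.62 (adjusted p = 0.00449). KLRK1, the activating receptor NKG2D, gave 103, 17.4, 92.9, 35.1, and 117 FPKM, and CRTAM, an adhesion molecule of activated cytotoxic cells, gave 54.1, 9.55, 26.5, 19.8, and 64.2 FPKM. The highest lung levels were 18.9 and 2.62 FPKM, so that spleen 2 overlapped with the lung for KLRK1 but not for CRTAM. EOMES, a T-box factor of these cells, was at 35.95, 2.84, 6.45, 2.53, and 31.5 FPKM, and its call against the lung (2.38 ± 0.62, adjusted p = 0.0123) was lost without spleen 1 or without spleen 5. The calls of KLRD1, KLRK1, and EOMES were lost with pandas 1 and 2 alone, although their smallest log2 differences there were 3.04, 2.74, and 2.62. CD7, found on early and natural killer lymphocytes, was the one identified member lower than in the lung, with 31.3, 13.2, 33.8, 15.6, and 31.9 FPKM in the spleens and 58.6 to 195 FPKM in the lung (log2 difference -2.004 ± 0.38, adjusted p = 0.00172). This value lay at the threshold, and the call was lost without spleen 2 or 4, without lung 2 or 4, under TMM and median-of-ratios scaling, and in both subsets of pandas.

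Of 26 kinases and adaptors behind the antigen receptors 21 had an identifier. All 21 were higher in the spleen than in the heart, liver, and kidney (backgrounds 19.4%, 25.9%, and 8.06%). Against the lung 14 were higher (background 2.84%). Without spleen 4 the lung count was 16, with pandas 1 and 2 alone it was 7, and with pandas 3 to 5 alone it was 8. PTPRCAP, the partner protein of the phosphatase CD45, was at 905, 349, 631, 298, and 824 FPKM and at 43.5 to 124 FPKM in the lung (log2 difference 3.24 ± 0.37, adjusted p = 4.06e-05). LCK, the kinase that starts T cell receptor signalling, gave 130.3, 11.4, 31.7, 10.9, and 119.6 FPKM, and SH2D1A (SAP), an adaptor of SLAM family receptors, gave 155, 15.3, 59.4, 18.8, and 179.8 FPKM. Both were lowest in spleens 2 and 4, and LCK passed its highest value elsewhere (7.24 FPKM) in all spleens. The calls of both against the lung (2.72 ± 0.65 and 2.70 ± 0.63) were lost with pandas 1 and 2 alone and with pandas 3 to 5 alone. Their smallest log2 differences stayed beyond 2, at 2.93 and 2.83 in pandas 1 and 2 and 2.58 and 2.61 in pandas 3 to 5. CARMIL2, a scaffold of CD28 signalling, was highest in spleen 1, with 44.4, 23.2, 25.7, 11.4, and 22.5 FPKM against at most 4.10 FPKM in the other tissues.

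Receptors for chemokines and lipid or nucleotide ligands were higher in the spleen at low levels. Of 13 such genes 10 had an identifier, and 7 were called in all 4 comparisons (background 2.12%). Spleens 2 and 4 were the lowest pair for all 10 (background 31.1%). The number called was 4 under quantile, TMM, and median-of-ratios scaling and 1 with pandas 1 and 2 alone. For 4 of the 10 all spleens lay above all other libraries, against 6.45% of all genes. CCR6, the receptor of CCL20, was at 13.2, 5.80, 18.98, 5.53, and 11.4 FPKM and at 0.440 to 2.77 FPKM in the lung. GPR174, a lysophosphatidylserine receptor of lymphocytes, was at 22.2, 3.93, 11.1, 5.21, and 25.2 FPKM and 0 in every kidney library, which puts its spleen mean at least 60.9-fold higher than there. P2RY10, a receptor of the same lipid, gave 27.6, 5.98, 38.97, 12.3, and 36.9 FPKM, and spleen 2 overlapped with the lung (1.71 to 6.70 FPKM). XCR1, the chemokine receptor of cross-presenting dendritic cells, was at 7.91, 1.79, 7.32, 2.93, and 10.4 FPKM and at most at 0.584 FPKM elsewhere. The log2 difference of XCR1 against the lung was 2.34 ± 0.36 (adjusted p = 4.13e-04), and its smallest difference was 1.82 under quantile normalization and also under the threshold with TMM and median-of-ratios scaling. Within the TNF receptor family, 4 of 7 identified genes were called in all 4 comparisons (background 2.12%). The count was 6 without spleen 4 and 1 under TMM or median-of-ratios scaling. TNFRSF9 (4-1BB), an activation receptor of T cells, was at 26.2, 4.96, 7.86, 8.94, and 38.4 FPKM, with spleens 1 and 5 highest, and at most at 2.97 FPKM in the other tissues, and lost its call under TMM and median-of-ratios scaling.

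Most of the identified genes listed for red pulp macrophages were higher in the spleen. Of 15 listed genes 6 had an identifier, and 4 were higher in all 4 comparisons (background 2.12%), or 5 without spleen 4. CD5L, a protein that macrophages secrete, was at 1444, 1624, 1127, 1139, and 1287 FPKM in the spleens, with a ratio of 1.44 between the highest and the lowest. It was also present in the lung (23.9 to 142 FPKM) and in the liver (0.662 to 93.3 FPKM), while the kidney and the heart were at 0.177 to 0.486 and 0 to 0.367 FPKM. The spleens did not overlap with any of them, and the log2 difference was 9.99 ± 0.19 (adjusted p = 3.23e-12) against the kidney and 4.46 ± 0.45 (adjusted p = 1.48e-05) against the lung. SPIC, the ETS factor on which red pulp macrophages depend, was uneven, with 86.7, 17.99, 93.6, 29.1, and 143 FPKM against at most 3.33 FPKM elsewhere. SIGLEC1, a sialic acid receptor of marginal zone macrophages, was at 66.2, 56.6, 41.5, 27.2, and 31.97 FPKM, and spleen 4 lay just below the highest lung library (27.4 FPKM). The call of SIGLEC1 in all 4 comparisons was lost without panda 2 (smallest log2 difference 1.90) and with pandas 1 and 2 alone (2.32). SLC37A2, a sugar phosphate carrier of macrophages, gave 52.03, 52.3, 38.02, 37.6, and 46.2 FPKM and at most 10.4 FPKM outside the spleen. MS4A4A, a surface protein of macrophages, was lower in the spleen than in the liver (1.27 to 3.77 against 7.05 to 57.6 FPKM). Among the dendritic cell genes 2 of 5 were called in all 4 comparisons (background 2.12%), XCR1 and the lysosomal nuclease PLD4. The count was 1 under each of the 3 scalings and 0 with pandas 1 and 2 alone. PLD4 was at 30.8, 8.04, 31.2, 8.06, and 25.6 FPKM and lowest in spleens 2 and 4. LAMP3, which mature dendritic cells and lung alveolar cells share, was lower in the spleen (7.80 to 33.9 FPKM) than in the lung (279.9 to 645 FPKM).

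The stromal transcription factors were higher in the spleen than in each other tissue. All 6 identified genes of 10 were called in all 4 comparisons (background 2.12%), and all 6 had no overlap (background 6.45%). NR5A1 (steroidogenic factor 1), a nuclear receptor needed for the spleen's vessels and for the adrenal and gonads, was at 177, 88.3, 96.1, 48.1, and 128 FPKM in spleens 1 to 5, and no other library passed 0.124 FPKM. The lowest spleen was thus 389 times the highest other library, and the log2 difference against the lung was 6.54 ± 0.29 (adjusted p = 3.10e-08). TLX1, the homeobox gene without which mice form no spleen, was at 104, 79.9, 40.9, 35.2, and 53.3 FPKM and 0 in every heart, liver, and kidney library, which places the spleen mean at least 209.7-fold, 218-fold, and 191-fold higher than in these tissues. NKX2-3, which organizes splenic and gut vessels, gave 131, 54.3, 41.5, 24.9, and 71.5 FPKM and was 0 in every lung library, so that the spleen mean was at least 188-fold higher. NKX3-2, another homeobox gene of the splenic mesenchyme, gave 36.4, 53.2, 8.77, 16.9, and 15.2 FPKM, 0 in every liver and lung library, and at most 0.0784 FPKM in the others. The levels were highest in spleen 1 for NR5A1, TLX1, and NKX2-3 and in spleen 2 for NKX3-2. The other 2 factors, PRRX2 and MSC, were at 29.9 to 127 FPKM and 5.86 to 19.6 FPKM in the spleens.

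Products of the lymphoid stroma were higher in the spleen too. Of 12 chemokine, adhesion, and cytokine genes 6 had an identifier and 4 were called in all 4 comparisons (background 2.12%). Without spleen 4 the count was 5. CXCL13, the chemokine that draws B cells into follicles, was at 124, 75.5, 128, 121, and 185 FPKM in the spleens, while the other 20 libraries did not pass 0.534 FPKM. In the lung it was 0 in every library, and the spleen mean was at least 185-fold higher. The log2 differences were 6.89 ± 0.22, 6.90 ± 0.27, 6.94 ± 0.22, and 6.82 ± 0.28 against the heart, liver, lung, and kidney, with adjusted p-values from limma of at most 1.11e-08. MADCAM1, the vessel ligand of lymphocyte integrins, was at 305, 321, 210.3, 159.8, and 173 FPKM and at most at 4.004 FPKM elsewhere. TNFSF11 (RANKL), a cytokine of lymphoid tissue organizer cells and T cells, was at 13.2, 2.60, 10.7, 5.83, and 18.01 FPKM, with spleen 2 lowest, and its smallest difference was 1.95 under quantile normalization, short of a call. CH25H, which makes the oxysterol precursor of a B cell guidance cue, ran the other way from the T cell genes. It was at 63.02, 242, 286, 201, and 57.3 FPKM, low in spleens 1 and 5, and the kidney reached 37.2 FPKM in 1 library. The smallest log2 difference of CH25H was 4.84 ± 0.75 (adjusted p = 2.03e-04), against the kidney.

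A gene of steroid synthesis went with NR5A1. CYP11A1, the enzyme that cuts the cholesterol side chain at the start of steroid synthesis, was at 68.1, 38.7, 71.02, 27.96, and 54.2 FPKM in the spleens and at most at 0.535 FPKM in the other 20 libraries, with a log2 difference of 5.28 ± 0.27 (adjusted p = 5.29e-08) against the lung. HSD3B1, a later enzyme of the same path, was at 0.129, 0.330, 0.261, 0.294, and 0 FPKM in the spleens and at 51.9 to 287 FPKM in the liver. The other 7 steroid genes listed for the adrenal had no identifier, so that the adrenal's defining genes could not be examined, and a part of adrenal tissue in these values was not tested.

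Platelet genes were higher in the spleen, whereas few red cell genes could be examined. Of 10 platelet and megakaryocyte genes 4 had an identifier, and 3 were called in all 4 comparisons (background 2.12%). CLEC1B, the podoplanin receptor CLEC-2 of platelets, was at 1134, 650.1, 725, 806, and 1657 FPKM, and the next tissue was the liver at 23.7 to 244 FPKM. Its smallest log2 difference, 2.98 ± 0.56 (adjusted p = 4.93e-04) against the liver, was 1.34 under TMM and 1.30 under median-of-ratios scaling, where the call was lost. ITGB3, the beta chain of the platelet fibrinogen receptor, was at 105, 234, 125, 213, and 99.5 FPKM, with spleens 2 and 4 highest, and at most at 9.01 FPKM elsewhere. F2RL3, a thrombin receptor of platelets, gave 8.91, 23.6, 12.02, 12.1, and 9.15 FPKM, at least 32.9 times any other library. None of 5 identified erythroid genes of 13 was higher in any comparison, but only 2 were tested in all 4. None of the 5 stood in the study's table under the spleen, so a result in favour of the spleen was unlikely from the start. Their sum was 9.82 to 18.4 FPKM in the spleens and 34.4 to 248 FPKM in the kidney. SLC4A1, the anion exchanger of red cells and of the kidney duct, was at 0 to 0.208 FPKM in the spleens and at 2.82 to 38.1 FPKM in the kidney. The globin genes had no identifier. Of 4 neutrophil and eosinophil genes none was called in all 4 comparisons, a count near the background of 2.12%. MMP25, a membrane protease of neutrophils, was at 15.9, 61.1, 16.3, 56.6, and 9.21 FPKM, high in spleens 2 and 4 and overlapping with the lung (16.1 to 48.3 FPKM). FPR2, a formyl peptide receptor, was at 0.138, 8.94, 0.139, 27.8, and 0.163 FPKM, so that it was near 0 in spleens 1, 3, and 5. Of 6 smooth muscle genes 1 was called in all 4 comparisons (background 2.12%), the integrin ITGA8 (45.1, 41.8, 22.1, 40.99, and 40.8 FPKM). The muscle filament gene DES (223, 435, 94.97, 273, and 157 FPKM) was higher than in the liver and kidney and lower than in the heart.

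The lung was the tissue that decided most calls. It gave the smallest log2 difference for 248 of the 326 genes, and 787 genes (5.11% of 15399) were higher than in the heart, liver, and kidney but were not called against the lung. Among the immune lists these included 8 T cell genes, 7 signalling genes, 3 cytotoxic genes, and 2 B cell genes. Many stood just under the threshold. SLA, an adaptor that dampens T and B cell receptors, was at 60.7, 24.6, 31.9, 41.2, and 65.3 FPKM in the spleens and 6.74 to 13.3 FPKM in the lung, with a log2 difference of 1.98 ± 0.28 (adjusted p = 2.19e-04). BATF, a factor of activated T and B cells, gave 46.1, 18.05, 55.7, 22.6, and 54.6 FPKM against 5.30 to 16.6 FPKM (1.93 ± 0.39, adjusted p = 0.00276). The exchange factor DOCK10 had a difference of 1.91 ± 0.21, the calcium pump ATP2A3 of 1.92 ± 0.25, and CD27, a receptor of memory lymphocytes, of 1.93 ± 0.39. For SLA, BATF, DOCK10, and ATP2A3 all 5 spleens lay above all 5 lungs, and for CD27 spleen 4 (9.77 FPKM) lay just below the highest lung (9.81 FPKM). Under quantile normalization SLA, BATF, DOCK10, and ATP2A3 passed the threshold. None of the 12 identified stroma genes was among them, a count near the background of 5.11%.

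**Figure D3:**
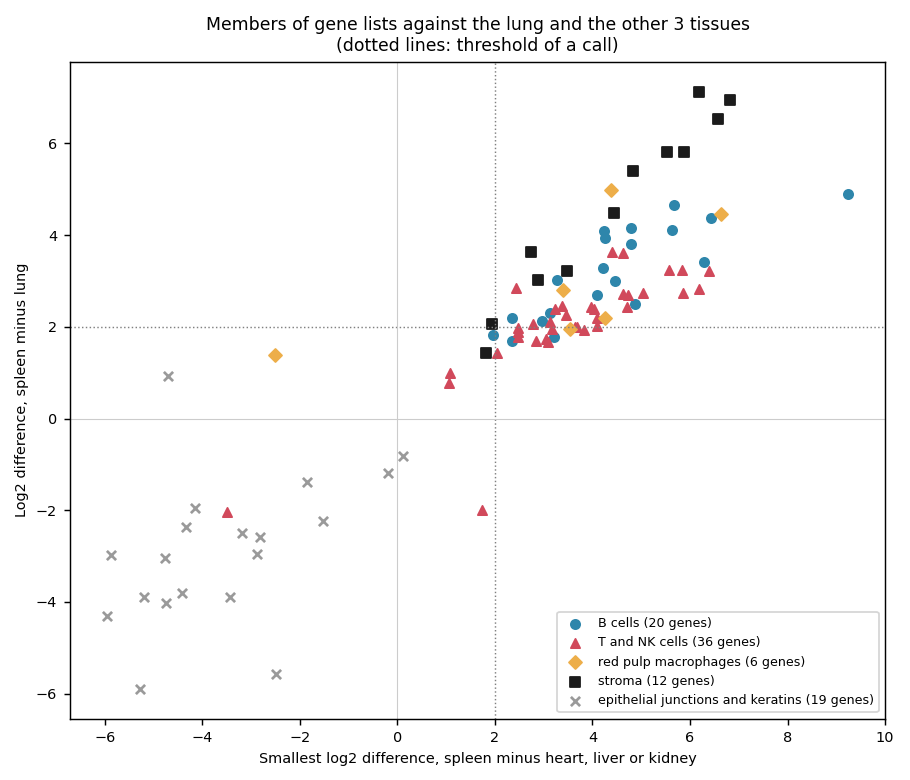
Log2 difference of the spleen against the lung (y axis) and the smallest of the log2 differences against the heart, liver, and kidney (x axis), with a point for each tested gene of the B cell, T and NK cell, red pulp, stroma, and epithelial lists, and dotted lines at the threshold of 2. Stroma genes lie near the diagonal, T and NK cell genes lie further to the right than up and on both sides of the lung threshold, and most epithelial genes lie below 0 against the lung.

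Genes of DNA replication and mitosis were partly shared with the lung. Of 15 genes 9 had an identifier, and 6 were higher than in the heart (background 19.4%). In all 4 comparisons 3 were called (background 2.12%), or 1 under quantile normalization. HFM1, a helicase known from meiosis, was at 22.8, 12.5, 12.05, 13.4, and 21.5 FPKM and at most at 2.39 FPKM elsewhere. POLE2, a subunit of DNA polymerase epsilon, was at 7.19, 8.31, 18.7, 11.9, and 11.3 FPKM, highest in spleen 3, and its difference against the lung of 2.04 ± 0.29 (adjusted p = 2.40e-04) fell short of the threshold under quantile, TMM, and median-of-ratios scaling and without spleen 3. PTTG1 (securin) was lower in the spleen (14.4 to 27.05 FPKM) than in the lung (60.01 to 151 FPKM).

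Of the 9 genes lower in the spleen than in all 4 other tissues, 8 are described here. They were the desmosome genes DSP and DSG2, the keratin KRT8, the junction-associated genes PERP and LMO7, and ECHDC2, LGALS4, and NCMAP. DSP (desmoplakin), which ties desmosomes to the cytoskeleton, was at 1.05, 0.788, 0.291, 1.503, and 0.991 FPKM in the spleens, 55.5 to 188 FPKM in the heart, and at least 2.22 FPKM in every other library. No spleen overlapped with another tissue, and the log2 difference was -5.87 ± 0.31 (adjusted p = 1.20e-08) against the heart and -2.43 ± 0.45 (adjusted p = 7.56e-04) against the kidney. DSG2 (desmoglein) was at 0.370, 0.487, 0.153, 0.848, and 0.737 FPKM, and its difference against the heart, -2.02 ± 0.19 (adjusted p = 1.42e-06), was at the threshold and was lost without spleen 1 or without spleen 3. KRT8, the keratin of simple epithelia, was at 8.39, 12.2, 4.83, 25.3, and 10.6 FPKM, against 46.03 to 191 FPKM in the heart and 233 to 677 FPKM in the liver.

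Spleen 4 was the highest spleen for DSP, DSG2, KRT8, PERP, and LMO7, the same library that held lung transcripts, and the part of lung RNA in these values was not tested. PERP, a membrane protein of desmosomes, was at 0.752, 3.32, 1.52, 9.44, and 2.07 FPKM, and LMO7, a scaffold of adherens junctions, was at 0.188, 1.86, 0.491, 4.99, and 0.272 FPKM. In spleen 4 both overlapped with the kidney (5.19 to 33.8 and 3.38 to 22.3 FPKM), and LMO7 also with the liver (2.15 to 30.7 FPKM). Their log2 differences were -2.64 ± 0.55 and -2.58 ± 0.52 against the kidney and -3.05 ± 0.46 and -5.89 ± 0.41 against the lung. Without spleen 4, 11 genes were lower than in all 4 tissues. With pandas 3 to 5 alone 6 were, and DSG2, LGALS4, PERP, and LMO7 were not among them. Their smallest differences there were -1.84, -2.31, -2.07, and -2.14, so that of DSG2 alone fell short of the threshold of 2. With pandas 1 and 2 alone 10 were, without LGALS4 (-2.16) and NCMAP (-2.09).

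ECHDC2, a mitochondrial enzyme of the hydratase family, was at 2.95, 2.67, 4.38, 1.71, and 2.65 FPKM and did not overlap with the other tissues, whose lowest library was at 11.7 FPKM. LGALS4, a galactose-binding lectin, was at 3.71, 3.25, 3.07, 2.49, and 4.50 FPKM, and spleen 5 overlapped with the lowest kidney, since the kidney ranged from 4.01 to 76.2 FPKM. NCMAP, a myelin-associated protein, was at 0.716, 2.43, 0.241, 2.38, and 0 FPKM, with its largest difference against the kidney (-6.87 ± 0.53, adjusted p = 6.19e-07), and its call in all 4 comparisons was lost without spleen 5 and under quantile, TMM, and median-of-ratios scaling.

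**Figure D4:**
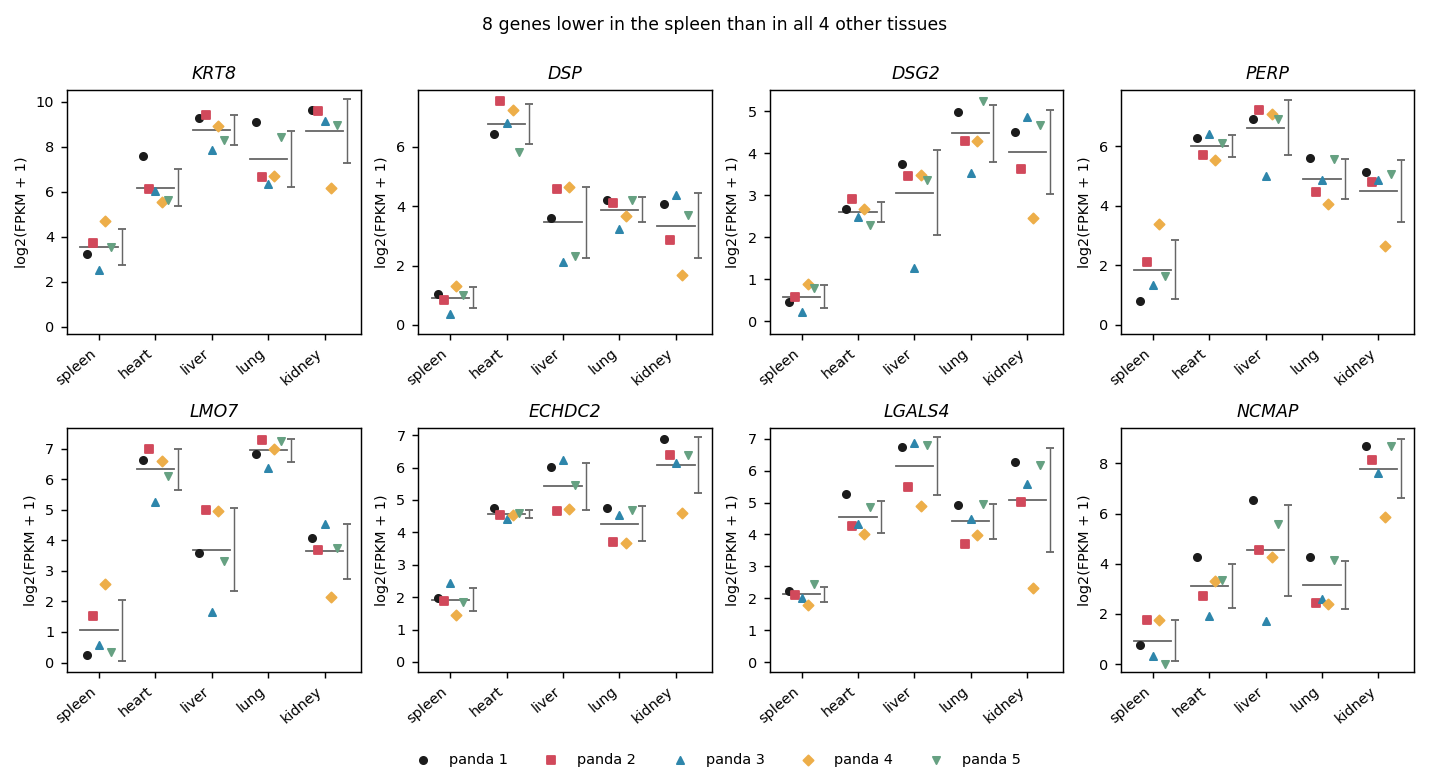
Expression of 8 genes lower in the spleen than in all 4 other tissues, in log2(FPKM + 1) on the y axis, by tissue on the x axis, with a point for each panda, a line at the mean, and bars of 1 SD (n = 5). The spleen has the lowest mean in each panel, and the spleen point of panda 4 is the highest spleen value for KRT8, DSP, DSG2, PERP, and LMO7.

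The wider list of epithelial junction and keratin genes pointed the same way without being uniform. Of 29 genes 28 had an identifier, and 5 were lower than in all 4 other tissues (background 0.0584%). Of the 28, 14 stood in the study's table under the spleen and the rest under other tissues alone. The counts here thus depend on the study's own calls on these samples and are not a test against the backgrounds. Against the lung 18 of 25 tested genes were lower (background 4.03%), against the kidney 19 of 26 (6.25%), against the liver 10 of 21 (3.94%), and against the heart 8 of 19 (3.88%). The median log2 difference was -2.98, -2.72, -1.25, and -1.54. Against the heart 6 genes were higher in the spleen, among them CDH1 (E-cadherin) with 41.9, 36.5, 29.8, 34.7, and 36.4 FPKM in the spleens and 0 to 0.428 FPKM in the heart. E-cadherin was not called against the liver, lung, or kidney, where the log2 differences were -0.19, -1.20, and 1.22. Over the 28 genes the sum was 180.2, 139, 120.1, 186, and 163 FPKM in spleens 1 to 5, below every other library, the lowest of which was a kidney at 294.4 FPKM.

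The largest differences to single tissues were those of each organ's own products. MYL2, the ventricular myosin light chain, was at 23304 to 34419 FPKM in the heart and at 0, 0.863, 14.8, 10.3, and 3.81 FPKM in the spleens (log2 difference -12.67 ± 0.63, adjusted p = 6.53e-09). TNNC1, ACTA1, TNNT2, and MB followed, with differences of -12.51, -12.27, -11.84, and -11.72. In the liver comparison HAMP, the iron hormone hepcidin, led with -12.70, before AHSG, FGG, APOC3, and APOH at -11.91, -11.63, -11.18, and -11.13. Surfactant genes led in the lung comparison, with a log2 difference of -11.93 ± 1.05 for SFTPC and -10.31 ± 0.71 for SFTPB, and CXCL17, a mucosal chemokine, and IDO1, which degrades tryptophan, had differences of -9.67 and -8.94. In the kidney FXYD2, a subunit of the sodium pump, had a difference of -11.15 ± 0.60, and SPP1 (osteopontin), ACSM2B, CDH16, and UMOD (uromodulin) ranged from -8.46 to -7.94.

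Some of the genes with the largest differences in favour of the spleen were not higher in all 4 comparisons. CP, the copper oxidase ceruloplasmin, was at 403, 378, 302, 473, and 515 FPKM in the spleens and at 0.0204 to 0.579 FPKM in the heart, but the liver spanned 8.95 to 543 FPKM and was not called (1.28 ± 0.87, adjusted p = 0.196). Liver 3 was the lowest liver, the others were at 254 FPKM or above, and without liver 3 the log2 difference was 0.26 ± 0.26 (adjusted p = 0.369). CCK, the peptide hormone cholecystokinin, was at 252, 166, 243, 159, and 412 FPKM, against 1.04 to 2.56 FPKM in the lung, yet the kidney was higher still at 176 to 2426 FPKM (-2.34 ± 0.60, adjusted p = 0.00601). ENPEP, the aminopeptidase that cleaves angiotensin II, gave 393, 155, 256, 159, and 477 FPKM in the spleens and 1.62 to 3.35 FPKM in the lung, and its difference against the kidney of 1.89 ± 0.51 (adjusted p = 0.00766) stayed under the threshold. PLAC8, a small protein of leukocytes, was higher in all 4 comparisons, with 618, 300.3, 1029, 718, and 1238 FPKM and 60.6 to 199.9 FPKM in the lung. NPY1R, a neuropeptide Y receptor of vessels and leukocytes, was at 112, 123, 272, 159, and 125 FPKM, highest in spleen 3, and at 7.61 to 63.6 FPKM in the lung (log2 difference 2.91 ± 0.48, adjusted p = 6.96e-04).

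Markers of the other organs were in part detected in the spleens. Of 94 such genes 46 were below 1 FPKM in all 5 spleens and 20 were above 1 FPKM in all 5. The lists held 24 hepatocyte, 22 cardiomyocyte, 20 kidney tubule, 14 lung epithelium, and 14 motile cilia genes. None was called higher in the spleen than in all 4 other tissues (background 2.12%). This says little, since 10, 11, 4, 7, and 4 of them in turn were tested in all 4 comparisons. Nearly all stood in the study's table under another tissue and not under the spleen. Against the heart 4 lung epithelium genes and 3 hepatocyte genes were higher in the spleen (background 19.4%). Against the liver 4 lung epithelium genes were higher (background 25.9%). The lung epithelium list summed to 129, 97.3, 133, 248, and 137 FPKM in spleens 1 to 5 and to 16288 to 52429 FPKM in the lung. Spleen 4 was highest and spleen 2 lowest. The cardiomyocyte list summed to 149.9, 153, 193, 242, and 253 FPKM, against 106514 to 129473 FPKM in the heart. PLN (phospholamban), which smooth muscle also has, made up most of that sum. Among the spleens, MYL2 and TNNC1 were above 1 FPKM in spleens 3, 4, and 5 alone (11.2, 8.45, and 2.60 FPKM for TNNC1). This was not particular to the spleen. MYL2 was at 11.1, 11.5, and 15.6 FPKM in lungs 3 to 5 and at 0.307 and 0.126 FPKM in lungs 1 and 2. Both genes were above 1 FPKM in kidneys 3 to 5 alone and in livers 3 and 4 alone. The cause was not tested. The hepatocyte list summed to 936, 402, 569.8, 431, and 1177 FPKM, most of it from the apolipoprotein gene APOA1 (873, 279, 496, 286, and 1128 FPKM), against 81821 to 110961 FPKM in the liver. The kidney tubule list was at 29.6 to 41.8 FPKM in the spleens and 1551 to 17011 FPKM in the kidney. Of the pancreas and stomach genes, 6 of 17 had an identifier, and the sum in the spleens was 2.47 to 5.67 FPKM.

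The 5 spleens differed in a patterned way, described here without a test because each age and cause of death had its own animals. T and NK cell genes were highest in spleens 1 and 5, one from the aged panda and one from a young panda, and lowest in spleens 2 and 4, from the adult and another young panda. Among the 326 genes, spleens 2 and 4 were the lowest pair for 151 (46.3%), against 31.1% of all genes with a spleen mean above 1 FPKM. The pattern was thus in part that of the whole libraries. Spleens 1 and 5 were the highest pair for 141 of the 326, and the share over all genes was not counted for that pair. The ratio of the highest to the lowest spleen was 21.8 for TRDC, 12.9 for KLRD1, 14.2 for EOMES, 11.96 for LCK, and 7.21 for CD3E. It was 1.56 for CD8A, 1.44 for CD5L, 1.36 for SPIB, 2.39 for IGHM, and 2.46 for CXCL13. B cell genes were split, since spleens 2 and 4 were the lowest pair for 10 of the 20, among them MS4A1 (72.8, 17.97, 94.6, 28.8, and 111 FPKM), but not for IGHM, which was lowest in spleen 3, or CD22, which was lowest in spleen 5. The most variable named genes after TRDC were LOC105241797 and LOC100465875, with 204, 11.3, 36.6, 16.5, and 202 FPKM and 45.5, 2.58, 6.68, 2.51, and 50.2 FPKM, both highest in spleens 1 and 5 and lowest in spleens 2 and 4. The most even, beside SPIB, were the neuronal adhesion gene NEGR1 (10.6, 9.26, 7.99, 9.63, and 10.7 FPKM) and the Wnt regulator DKK2 (103, 125, 88.1, 99.9, and 101 FPKM). Reads on genes were 13448098 in spleen 2 and 15100296 in spleen 4, against 13585224 to 17390324 in the other 3 spleens.

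**Figure D5:**
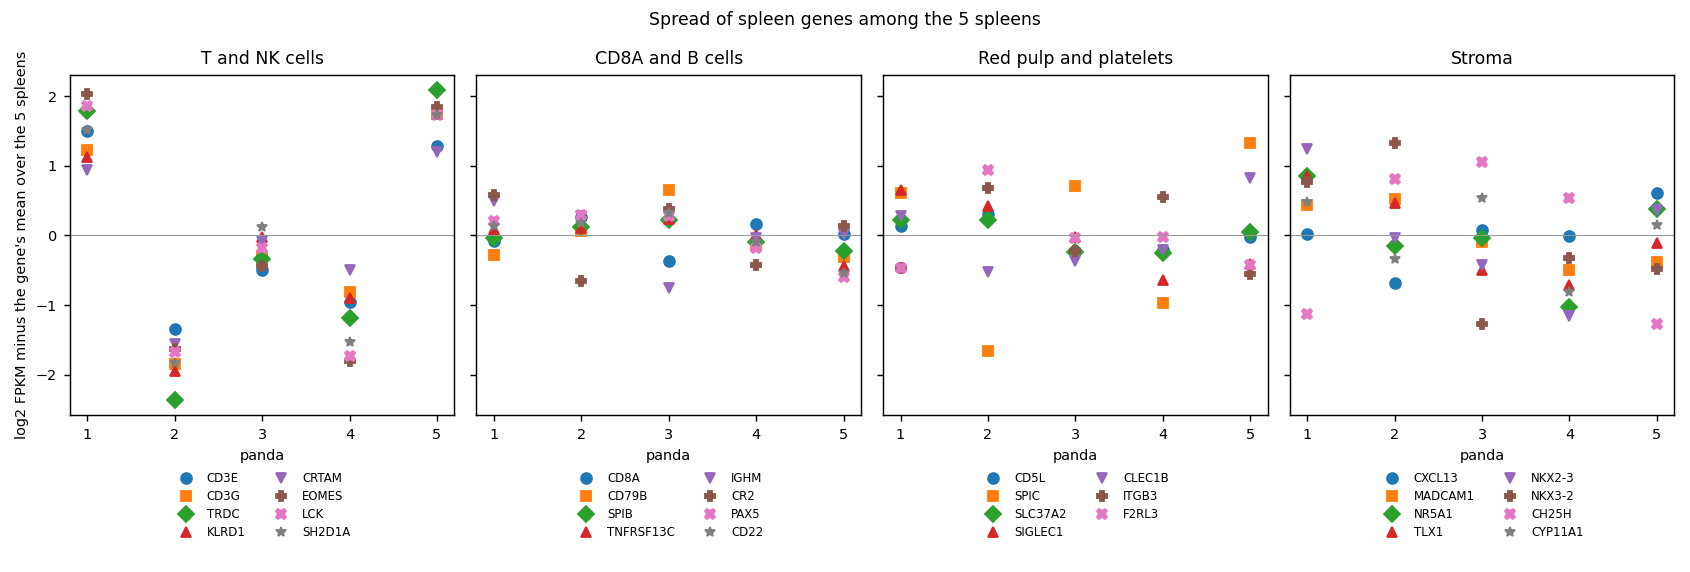
Log2 FPKM minus the mean of each gene over the 5 spleens (y axis) by panda (x axis), in 4 panels for T and NK cell genes, CD8A and B cell genes, red pulp and platelet genes, and stroma genes, with a symbol for each gene. The T and NK cell genes of pandas 1 and 5 lie above 0 and those of pandas 2 and 4 below 0, whereas CD8A and CD5L stay close to 0 and CH25H is lowest in pandas 1 and 5.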

How the data were processed

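Messenger RNA of 5 tissues from each of 5 pandas was sequenced as paired-end reads, 1 library per tissue and panda. Reads were mapped by the authors to ailMel1 with HISAT2, genes outside the annotation were assembled with Cufflinks, and HTSeq (union mode) gave the read numbers, from which the deposited FPKM values of 25376 genes per library were made without a stated scaling across libraries. The use of strand in counting was not given in the sources used here, so overlapping and antisense genes cannot be separated.

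Genes with a mean FPKM above 1 in the spleen or the other tissue were tested on log2(FPKM + 1) with limma 3.58.1 (R 4.3.3) and a trend in the variance, in each pair of tissues, with Benjamini-Hochberg adjustment over all genes tested and a threshold of 0.05 and of 2 on the log2 scale. Errors of log2 differences are SE, and n = 5 per tissue. Whole reads could be recovered from the steps of the FPKM values for 24207 of 24207 genes with any value above 0 (tolerance 0.05 reads). A floor of 3 reads is 0.140 to 0.228 FPKM for a gene of 1 kb and covers counting error only. The spleen against lung fit alone was run on simulated reads, where 191 of 200 changed genes and 0 unchanged genes were called. Both tissues shared a baseline and the libraries were not paired there. The result does not cover the heart and liver comparisons with their shifted distributions.

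The number in the titles was taken to mark the panda. Libraries of the spleen and of another tissue from the same panda correlated at 0.178 to 0.472 across genes after removal of tissue means (20 of 20 pairs above 0.1), and those of different pandas at -0.490 to 0.362. The panda as a block was an alternative. Nothing in the labels says whether tissues were extracted separately, and p-values measure the spread between the 5 animals.

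The lists and members were chosen with earlier results of these data known. There were 25 lists, and 77 named genes higher in all 4 comparisons stood in at least 1. Named genes were the markers IGHM, CD79B, and CXCL13, up to 4 genes per list with the largest smallest difference among those higher in all 4 comparisons, the named genes lower in all 4, the 5 named genes of largest difference without overlap in each comparison and direction, the 3 most and 3 least variable in the spleen, and the 5 list members that missed only the lung call. This gave 91 genes, and others are members of a list described by their values or were chosen after their values were seen. Names came from the study's table, which had been read from page images, so that a name may be misread. Alternatives were quantile, TMM, and median-of-ratios scaling, a pseudocount of 0.1, other filters, limma-voom on the recovered reads, a log2 threshold of 1, subsets of pandas, and each library or panda left out. Gene positions and sequences were not analysed here, and 2 genes that the rule or the lists hold are not reported here. Python 3.11.15, numpy 2.4.6, pandas 2.3.3, and matplotlib 3.10.9 were used.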

Additional observations from a re-analysis of the deposited data

Results flagged for a closer look

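In 10 of 91 groups of 5 spleen values, 1 library stood apart from the other 4, its gap to the nearest value divided by the range being above Dixon's critical value of 0.71. Chance flags about 1 in 20 groups, and genes are not independent. The values below are spleen FPKM of the library that stood apart.

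Spleen 4 was the library in 6 of the 10 groups, each time as the highest. It had 99.3 FPKM of SFTPC, 20.9 FPKM of LOC100482856, 19.3 FPKM of SFTPB, and 15.6 FPKM of CXCL17, which were among the genes with the largest differences in favour of the lung. It also had 14.1 FPKM of the liver hormone gene HAMP. The levels of HAMP were 0.262 to 23.0 FPKM in the heart and 0.574 to 15.95 FPKM in the kidney. They were 1.73 to 46.5 FPKM in the lung and 3443 to 57134 FPKM in the liver. The liver gene AHSG was at 0.793 FPKM in spleen 4, against 0.378 FPKM in lung 4, 1.21 FPKM in heart 4, and 3403 FPKM in liver 4. The part of RNA from the lung or another organ in the values of spleen 4 was not tested.

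For the other 4 genes another library stood apart. Spleen 1 had 25.7 FPKM of IL21R, a receptor of lymphocytes, and was the highest. Spleen 2 had 23.6 FPKM of the platelet receptor gene F2RL3 and was the highest. Spleen 3 had 22.1 FPKM of the integrin gene ITGA8 and was the lowest. Spleen 5 had 0.231 FPKM of the kidney cadherin gene CDH16 and was the lowest, at a level near the 3-read floor.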

How the results depend on the processing

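Of 123 results for named genes, 89 kept their direction and their side of the threshold in every alternative run for them, and none reversed. These were 42 alternatives for a result over all 4 tissues and 27 for a result against 1 tissue, which leaving out a library of another tissue does not touch. Leaving out libraries changed no count over all genes tested by more than 1.5 times. Without 1 spleen or 1 panda, 287 to 373 genes were higher and 8 to 11 lower in all 4 comparisons. Counts within lists moved more, such as T cell genes from 17 to 4 with pandas 1 and 2 alone. With the panda as a replicate block, 334 genes were higher (all 326 among them) and 9 lower, and the block changed no call of a named gene. Depth limits low genes, since 3 reads on a short gene reach 0.685 FPKM. The counts below moved by over 1.5 times, and the cause was not tested, except that a lower log2 threshold admits more genes by its construction.

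With quantile normalization 1162 genes were higher and 1217 lower than in the heart, 1112 higher and 1225 lower than in the liver, and 16 lower in all 4. TMM factors gave 1184 and 1268 against the heart, 1108 and 1576 against the liver, 897 higher than in the kidney, and 16 lower in all 4. Median-of-ratios factors gave 1147 and 1327 against the heart, 1084 and 1624 against the liver, 895 higher than in the kidney, and 16 lower in all 4. Under the scalings 254, 222, and 219 genes were higher in all 4. Limma-voom on recovered reads raised the lists' counts in all 4 comparisons to 27 T cell, 7 natural killer, 6 replication, 6 germinal centre, 5 plasma cell, and 4 dendritic cell genes. A pseudocount of 0.1 gave 5482 and 993 against the heart, 7300 higher than in the liver, 958 and 1394 against the lung, 2387 and 1766 against the kidney, and 662 and 30 in all 4. Limma-voom on recovered reads gave 5733 and 1018 against the heart, 7606 higher than in the liver, 968 and 1377 against the lung, 2495 and 1773 against the kidney, and 674 and 29 in all 4. A log2 threshold of 1 gave 9096 and 1317 against the heart, 9610 and 1174 against the liver, 1421 and 1932 against the lung, 4243 and 2323 against the kidney, and 994 and 45 in all 4.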

Other observations

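Of the 163 named genes higher in the spleen than in all 4 other tissues, 86 stood in none of the lists. Those named below were chosen after their values were seen, and are given as values with no test beyond the comparisons. Ranked by the smallest of the 4 log2 differences, the first among them (5.66) was LMAN1L, a lectin of the secretory pathway, with 102, 55.4, 71.6, 28.2, and 63.8 FPKM in spleens 1 to 5 and at most 0.320 FPKM in the other tissues. CPLX3, a complexin of synaptic vesicles, was at 55.8, 24.6, 40.7, 15.97, and 28.9 FPKM and 0 in every heart and liver library. TLX3, a homeobox gene related to TLX1, was at 5.82, 6.42, 4.56, 5.13, and 7.005 FPKM and at most at 0.0842 FPKM elsewhere. Spleen 3 was the highest spleen for the neuropeptide Y receptors NPY1R (112, 123, 272, 159, and 125 FPKM) and NPY5R (13.99, 12.5, 58.99, 19.2, and 19.7 FPKM) and for the neuronal gene STMN2 (18.3, 19.5, 49.3, 24.98, and 21.5 FPKM), and the lowest for the peptide gene EDN3 (21.5, 20.4, 1.23, 13.4, and 28.3 FPKM) and the secreted protein gene PI15 (124, 62.5, 18.3, 84.8, and 179 FPKM).

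Signalling ligands were also among these genes. WNT5A, a ligand of noncanonical Wnt signalling, was at 63.02, 32.9, 24.4, 22.1, and 49.5 FPKM, highest in spleens 1 and 5, with at most 6.05 FPKM in the other tissues. AREG (amphiregulin), an EGF receptor ligand, was at 44.3, 56.8, 56.8, 79.3, and 68.4 FPKM, and spleen 4 was highest. DLL1, a Notch ligand that marginal zone B cells need, was at 135, 145, 95.6, 97.6, and 107 FPKM and at most at 42.97 FPKM outside the spleen. The interleukin gene IL24 gave 23.04, 21.8, 26.9, 33.01, and 24.9 FPKM, and the inducible nitric oxide synthase NOS2 gave 44.4, 35.5, 26.4, 29.8, and 38.1 FPKM. Their highest values in the other tissues were 8.86 and 13.04 FPKM. GH1, named growth hormone in the study's table, was at 6.17, 11.3, 14.5, 10.6, and 9.89 FPKM, against at most 1.12 FPKM elsewhere.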
